A study of Mus musculus with 12 samples.

Results

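The nuclear-encoded subunits of respiratory complexes II to V, with cytochrome c, were followed in the ageing mouse lung as 49 protein-coding genes of the 35275 genes in the table. The rule uses gene names (Sdha to Sdhd, names beginning Uqcr, Cox4 to Cox8 or Atp5, and Cyc1 and Cycs). Assigned by name, complex II contributed 4 genes, complex III 9, cytochrome c 1, complex IV 18 and complex V 17, spread over 19 chromosomes. Of these, 47 had enough reads to be tested; Cox7b2 and Cox8c, testis isoforms of complex IV subunits, were near 0. The names also match 3 Atp5l pseudogenes, which are not protein coding and held at most 6 reads in any library.

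Poly(A) RNA was sequenced from minced whole lung of 12 male wild-type C57Bl/6J mice of the NCGG colony (National Center for Geriatrics and Gerontology), 3 mice at each of 3, 6, 12 and 24 months. No transgene, deletion or agent is given for any of these animals, and age is the labelled difference between the groups. The labels give no batch or date of preparation, so age and the preparation of the libraries cannot be told apart. Each library is 1 mouse, and the 3-month mice are the reference for 3 of the comparisons. Whole lung mixes epithelium, endothelium, blood cells and other cells, so fewer cells of a type and less RNA per cell cannot be told apart.

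Mitochondrial respiration passes electrons from substrates to oxygen through complexes in the inner membrane. Complex II (succinate dehydrogenase) oxidises succinate and feeds ubiquinone, complex III passes electrons from ubiquinol to cytochrome c, and complex IV (cytochrome c oxidase) reduces oxygen. Complexes III and IV pump protons, and complex V (ATP synthase) uses the returning protons to make ATP. Complex II is wholly nuclear-encoded, while complexes III, IV and V join nuclear subunits to a few subunits encoded by mitochondrial DNA. In lung, alveolar type 2 cells, which make surfactant, are rich in mitochondria, and the complex IV isoform Cox4i2 is known for its expression in lung.

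Members differ in base composition and in how alike their messages are, and 7 coding stretches show this. The first 4 are the opening 120 coding bases of genes that work side by side and whose uncorrected fold changes at 24 months had opposite signs, pairs chosen after their values were seen: the complex III core proteins Uqcrc1 (chr9:108936648-108949640, plus strand) and Uqcrc2 (chr7:120635176-120659478, plus strand), and the electron carriers Cyc1 (chr15:76343523-76345934, plus strand) and Cycs (chr6:50562563-50566538, minus strand), all in mm10. Capitals mark G or C, which make up 70.8% of the Uqcrc1 stretch, 53.3% of Uqcrc2, 75.8% of Cyc1 and 49.2% of Cycs.
Uqcrc1: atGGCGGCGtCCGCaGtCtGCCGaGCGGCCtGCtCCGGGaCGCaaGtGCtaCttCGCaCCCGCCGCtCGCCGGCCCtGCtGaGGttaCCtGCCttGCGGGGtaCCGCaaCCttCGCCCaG
Uqcrc2: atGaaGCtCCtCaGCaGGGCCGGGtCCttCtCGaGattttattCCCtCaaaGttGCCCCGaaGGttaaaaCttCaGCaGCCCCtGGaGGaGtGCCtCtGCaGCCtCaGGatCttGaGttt
Cyc1: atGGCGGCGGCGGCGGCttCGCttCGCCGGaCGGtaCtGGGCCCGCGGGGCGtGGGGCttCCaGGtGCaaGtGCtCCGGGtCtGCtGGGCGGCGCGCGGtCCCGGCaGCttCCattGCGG
Cycs: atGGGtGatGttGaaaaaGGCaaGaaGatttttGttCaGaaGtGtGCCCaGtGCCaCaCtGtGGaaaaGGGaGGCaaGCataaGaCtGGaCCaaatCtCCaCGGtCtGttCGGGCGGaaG
The other 3 are the last 120 coding bases of Atp5g1 (chr11:96068852-96075670, minus strand), Atp5g2 (chr15:102662864-102672352, minus strand) and Atp5g3 (chr2:73908447-73911326, minus strand). These genes encode one and the same mature subunit c, which forms the rotating ring of complex V, from different messages. Capitals mark the bases that differ from Atp5g2, 16 in Atp5g1 and 28 in Atp5g3.
Atp5g1: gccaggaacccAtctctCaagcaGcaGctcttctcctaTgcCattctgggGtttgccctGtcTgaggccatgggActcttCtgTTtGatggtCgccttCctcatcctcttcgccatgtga
Atp5g2: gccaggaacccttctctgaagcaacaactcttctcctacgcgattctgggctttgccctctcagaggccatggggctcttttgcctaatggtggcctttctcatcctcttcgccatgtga
Atp5g3: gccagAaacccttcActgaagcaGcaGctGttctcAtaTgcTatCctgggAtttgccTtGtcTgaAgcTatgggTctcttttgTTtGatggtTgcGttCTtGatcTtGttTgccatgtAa
Over the last 237 coding bases the 3 genes translate to the same residues although their bases are 77.2% to 84.8% identical.

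Libraries held 14720869 to 21244361 reads assigned to genes, and levels are given as CPM (counts as a share of the library's assigned reads) scaled by trimmed mean of M values (TMM). The 24-month libraries stood apart before any single gene was considered. The GC content of transcripts, weighted by their reads, was 50.5% to 51.8% in the 9 libraries of 3, 6 and 12 months and 54.3%, 54.5% and 55.9% in the 24-month libraries, and mitochondrially encoded RNAs took 1.65% to 3.12% of reads in the former and 0.443% to 0.629% in the latter. Their TMM factors were 0.521 to 0.826, against 1.06 to 1.20 at the other ages. Among those, the 12-month libraries had factors of 1.062 to 1.089 and the 3-month and 6-month libraries 1.138 to 1.203. Read-weighted GC content was 51.7%, 51.8% and 50.7% in 12-month mice 1, 2 and 3, against 50.5% to 51.1% at 3 and 6 months. Lung markers were present throughout: the 6 epithelial markers Sftpc, Sftpb, Ager, Hopx, Scgb1a1 and Foxj1 summed to between 41450 and 80280 CPM in all 12 libraries. That sum did not stay level with age, at 41450 to 57080 CPM at 3 months, 50940 to 59310 CPM at 6 months, 60470 to 70070 CPM at 12 months and 61110 to 80280 CPM at 24 months. The base composition of the libraries therefore moved with age at 24 months, its origin was not tested, and members at 24 months are given beside a fit that corrects each library for transcript GC content and length ("the correction"). CPM levels and marker sums are not corrected.

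The share of all assigned reads that came from the 49 genes needs no scaling. It was 0.542%, 0.412% and 0.431% in the 3 mice at 3 months, 0.499%, 0.471% and 0.455% at 6 months, 0.599%, 0.637% and 0.611% at 12 months and 0.542%, 0.502% and 0.515% at 24 months. The 12-month mice were above all 9 others, and the 24-month mice overlapped the 3-month range. Summed TMM-scaled levels gave another order at the oldest age, with 3426 to 4683 CPM in the 3-month mice, 5505 to 5993 CPM in the 12-month mice and 6547 to 9878 CPM in the 24-month mice, because the TMM factors of the 24-month libraries were lower.

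At 24 months against 3 months the 47 tested genes split rather than moved together. By edgeR's quasi-likelihood test with Benjamini-Hochberg adjustment over 16042 genes, 24 were higher, 14 lower and 9 passed in neither direction, with a median log2 fold change of 0.49. Over all tested genes 82.8% were called, 38.2% higher and 44.6% lower, with a median of -0.29, so the share of members called was close to the background. The scaling moved this split. With library totals in place of TMM factors, an alternative chosen after seeing the data, 13 members were higher and 20 lower, and the medians were -0.24 for the members and -1.0 for all genes. The distance of the members' median above that of all genes was 0.78 with TMM, 0.78 with relative log expression factors (25 higher, 11 lower) and 0.76 with library totals. For the same comparison the authors' deposited table marked 25 members higher and 12 lower, beside 6448 genes higher and 7016 lower in the whole table.

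**Figure D1:**
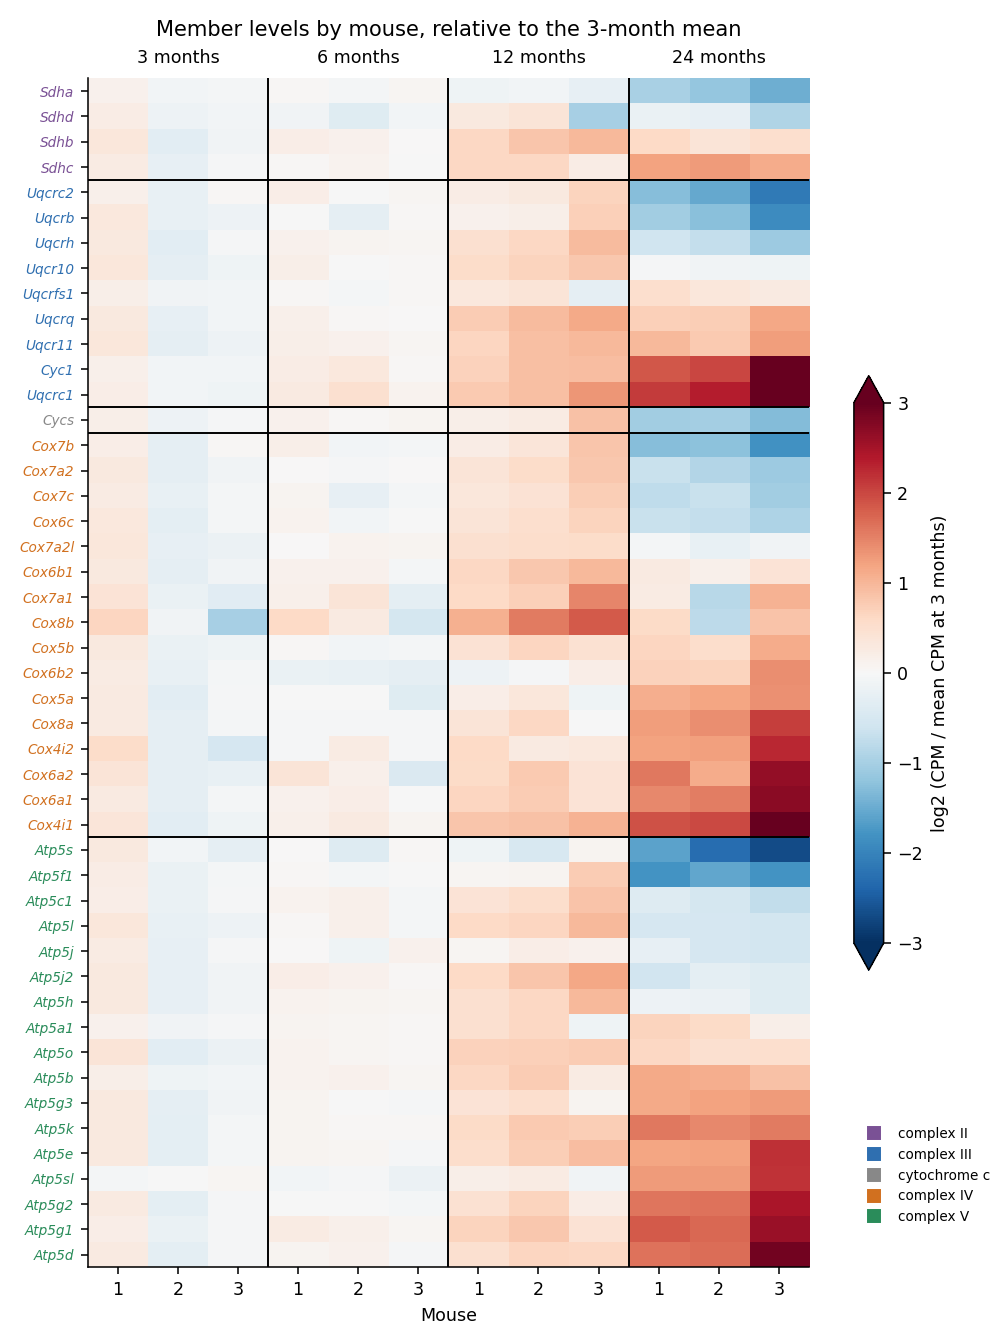
Levels of the 47 tested genes in each of the 12 mice, as log2 of CPM over the mean CPM at 3 months; rows are genes grouped by complex and columns are mice grouped by age, with red above and blue below the 3-month mean and the scale ending at -3 and 3. The 6-month columns are near white, the 12-month columns mostly pale red, and the 24-month columns hold the strongest colours in both directions within every complex.

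Complex II has 4 subunits made in equal number, and their messages took different directions at 24 months. Sdha, the flavoprotein that carries the succinate site, stood at 194, 169 and 171 CPM in the 3 mice at 3 months and 91.0, 79.5 and 64.3 CPM at 24 months. All 3 older mice were below all 3 young ones, and Sdha fell by 1.19 ± 0.19 (log2, ± SE; edgeR adjusted p = 2.4e-05). Sdhc, a membrane anchor of the complex, went the other way, from 83.4, 58.6 and 67.7 CPM to 161, 168 and 150.0 CPM, again without overlap, a rise of 1.19 ± 0.19 (edgeR adjusted p = 3.3e-05). Sdhb, the iron-sulfur subunit between them, was at 80.2, 50.8 and 58.9 CPM at 3 months and 95.1, 82.3 and 89.5 CPM at 24 months, a change of 0.49 ± 0.20 (edgeR adjusted p = 0.031) with every older mouse above every young one. That call is fragile: with library totals Sdhb was at -0.24, and without 3-month mouse 3 it was 0.21 (edgeR adjusted p = 0.42). Sdhd, the second anchor, was at 68.4, 53.0 and 55.4 CPM at 3 months and 51.7, 49.6 and 31.4 CPM at 24 months, lower in each older mouse but within reach of the spread (-0.41 ± 0.30, edgeR adjusted p = 0.21). In Sdhd 1 of the 12-month mice, mouse 3, stood apart at 29.6 CPM beside 71.8 and 77.4 CPM in its age mates.

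With the GC and length correction the complex II pattern changed for 2 of the 4 genes. Sdha moved to 0.01 ± 0.10 (edgeR adjusted p = 0.97) and Sdhb to -0.38 ± 0.16 (edgeR adjusted p = 0.048), while Sdhc remained higher at 1.51 ± 0.14 (edgeR adjusted p = 8.2e-07). Of the 4 messages only Sdhc was higher at 24 months with TMM scaling and with both corrections, and with library totals it did not pass (0.47, edgeR adjusted p = 0.07). Summed over the complex, 331 to 426 CPM at 3 months compared with 335 to 399 CPM at 24 months, ranges that overlap.

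Complex III held the widest gap between partners. Uqcrc1 and Uqcrc2 encode the 2 core proteins that sit side by side on the matrix face of the complex. Uqcrc1 was at 108, 88.5 and 86.0 CPM in the 3-month mice, 163, 176 and 234 CPM at 12 months and 404, 479.5 and 1278 CPM at 24 months, and Uqcrc2 at 91.0, 70.4 and 84.1 CPM, 96.0, 99.8 and 130.3 CPM and 33.5, 28.3 and 18.9 CPM at the same ages. Neither gene's 24-month values overlapped its 3-month values, and the oldest-age values lay on opposite sides. Uqcrc1 rose by 2.93 ± 0.36 (edgeR adjusted p = 2.5e-06), and Uqcrc2 fell by 1.60 ± 0.23 (edgeR adjusted p = 8.1e-06). Within single libraries, where no scaling enters, reads of Uqcrc1 per read of Uqcrc2 were 1.19, 1.26 and 1.02 at 3 months, 1.22, 1.62 and 1.17 at 6 months, 1.70, 1.76 and 1.80 at 12 months and 12.1, 17.0 and 67.8 at 24 months. The ratio was thus already above the 3-month range in all 3 mice at 12 months, and 24-month mouse 3 was far above the other 2. With the correction Uqcrc1 remained higher (1.52 ± 0.27, edgeR adjusted p = 2.8e-04), while Uqcrc2 was at -0.19 ± 0.11 (edgeR adjusted p = 0.18), and with GC and length taken from 1 principal transcript per gene they were at 1.12 and 0.28.

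The electron carriers at the exit of complex III formed a second opposed pair. Cyc1, the cytochrome c1 subunit that hands electrons on, was at 64.1, 54.8 and 55.2 CPM at 3 months and 212, 232 and 586 CPM at 24 months. Cycs, the soluble cytochrome c that receives them and that also takes part in apoptosis, was at 41.6, 33.3 and 35.9 CPM and 17.9, 18.2 and 15.1 CPM; its values are given here because its sequence is shown, a choice made after they were seen. Cyc1 was higher in every older mouse and rose by 2.56 ± 0.32 (edgeR adjusted p = 2.7e-06), and Cycs was lower in every older mouse and fell by 1.11 ± 0.21 (edgeR adjusted p = 1.4e-04). The correction left Cyc1 higher at 0.55 ± 0.14 (edgeR adjusted p = 0.0038) and turned Cycs to 1.5 ± 0.16 (edgeR adjusted p = 2.6e-06). The direction of Cycs at 24 months therefore depended on whether base composition was corrected.

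Of the other subunits of complex III, Uqcrb, a small subunit at the quinone site, fell by 1.34 ± 0.25 from 37.4, 26.0 and 27.2 CPM to 14.7, 12.7 and 8.20 CPM (edgeR adjusted p = 1.1e-04). The 3 older mice were the lowest of the 12, and with the correction Uqcrb was at -0.17 ± 0.17 (edgeR adjusted p = 0.41). Uqcrh, the acidic hinge subunit near cytochrome c1, was also lower (-0.78 ± 0.21) and stayed lower with the correction (-0.51 ± 0.12). The small subunits Uqcrq and Uqcr11 were higher, at 0.88 ± 0.20 and 1.02 ± 0.21, but both missed the threshold with library totals (edgeR adjusted p = 0.6 and 0.26). With the correction Uqcrq was at 0.57 ± 0.17, still called, and Uqcr11 at -0.28 ± 0.14, not called. Uqcrfs1, the Rieske iron-sulfur protein, and Uqcr10, a small membrane subunit, did not pass (0.37 ± 0.20 and -0.09 ± 0.19), and with the correction the former was called higher (1.06 ± 0.15) and the latter lower (-0.71 ± 0.13). Complex III thus had 4 genes higher and 3 lower of 9, 4 and 2 with the correction, and 2 and 4 with library totals.

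**Figure D2:**
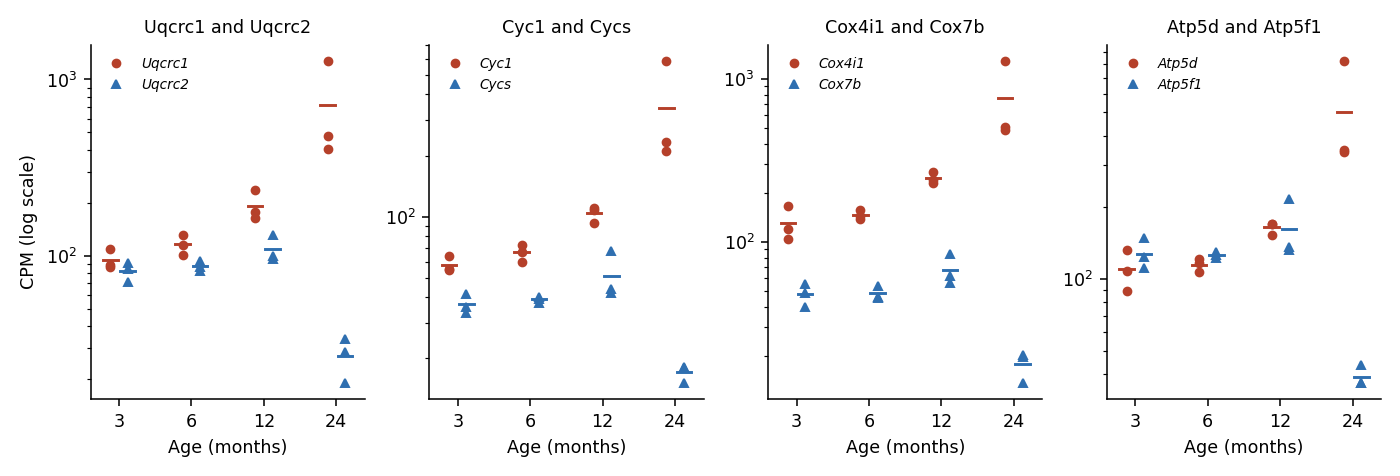
CPM on a log axis against age in months for 4 pairs of genes whose products belong to the same complex or electron step; each symbol is 1 mouse, circles the first and triangles the second gene of a pair, and bars the mean of 3 mice. At 3 months Uqcrc1 overlapped Uqcrc2 and Atp5d overlapped Atp5f1. Cyc1 (54.8 to 64.1 CPM) was already above Cycs (33.3 to 41.6 CPM) at that age, and Cox4i1 (104 to 166 CPM) above Cox7b (39.8 to 55.2 CPM). In each pair at 24 months the lowest circle was above the highest triangle, as for Uqcrc1 (404 to 1278 CPM) and Uqcrc2 (18.9 to 33.5 CPM). Each pair joins genes with opposite uncorrected fold changes at 24 months, so this parting follows from the choice of pairs. With the correction the fold change of Atp5f1 (0.62) was above that of Atp5d (0.21), and Cycs (1.5) above Cyc1 (0.55). Uqcrc1 (1.52) and Cox4i1 (1.59) remained above Uqcrc2 (-0.19) and Cox7b (0.01).

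Complex IV had 8 genes higher and 4 lower of the 16 tested, 7 and 2 with the correction, and 5 and 6 with library totals. Cox4i1, the general form of the regulatory subunit 4 that binds ATP, was at 166, 104 and 119 CPM at 3 months and 486, 509 and 1296 CPM at 24 months. All 3 older mice were above every younger mouse of the study, with mouse 3 more than the other 2, and Cox4i1 rose by 2.55 ± 0.33 (edgeR adjusted p = 4.0e-06). Cox6a1, the general form of subunit 6a, rose by 2.02 ± 0.30 from 132, 90.4 and 104 CPM to 298, 318 and 709 CPM (edgeR adjusted p = 1.3e-05). At the other end Cox7b, a small X-linked membrane subunit, fell by 1.42 ± 0.22 from 55.2, 39.8 and 48.6 CPM to 19.7, 20.3 and 13.6 CPM (edgeR adjusted p = 2.6e-05). Cox7a2, the general form of subunit 7a, was at 57.6, 38.9 and 43.7 CPM at 3 months and 29.5, 25.4 and 22.02 CPM at 24 months and fell by 0.87 ± 0.20 (edgeR adjusted p = 9.2e-04). For both lower genes every older mouse was below every young mouse. With the correction Cox4i1 remained at 1.59 ± 0.22 and Cox6a1 at 0.48 ± 0.14, both still called, Cox7a2 remained lower at -0.42 ± 0.11, and Cox7b was at 0.01 ± 0.12 (edgeR adjusted p = 0.95).

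The remaining general subunits of complex IV followed both courses. Cox5a and Cox5b, subunits on the matrix side, were higher (1.22 ± 0.21 and 0.78 ± 0.20), and so was Cox8a, the smallest membrane subunit (1.62 ± 0.25). Cox6c and Cox7c, small membrane subunits, were lower (-0.77 ± 0.20 and -0.82 ± 0.20). Cox6b1, which bridges the monomers of a complex IV dimer, and Cox7a2l, a relative of subunit 7a known for joining complexes III and IV into supercomplexes, did not pass (0.28 ± 0.20 and -0.12 ± 0.19). With the correction Cox5a (2.09 ± 0.22) and Cox8a (0.43 ± 0.13) stayed higher, while Cox5b (0.10 ± 0.11, edgeR adjusted p = 0.43) and Cox7c (0.09 ± 0.11, edgeR adjusted p = 0.48) lost their calls. Cox6c was called in the opposite direction (0.57 ± 0.15), Cox6b1 was called lower (-0.37 ± 0.13) and Cox7a2l higher (0.32 ± 0.13). With the principal transcript Cox5b was again higher (1.03) and Cox6c and Cox7c again lower (-0.32 and -0.71), so these 3 directions rested on which transcripts gave the GC content and length.

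Complex V had 10 genes higher and 5 lower of 17, 9 and 2 with the correction, and 6 and 7 with library totals. Atp5d, the delta subunit in the central stalk of the catalytic head, was at 133, 89.2 and 108 CPM at 3 months and 340.0, 349 and 824 CPM at 24 months. Atp5f1, subunit b of the outer stalk, was at 148, 111 and 123 CPM and 36.5, 43.5 and 36.8 CPM. Neither overlapped between the ages, and they moved apart: Atp5d rose by 2.20 ± 0.30 (edgeR adjusted p = 6.9e-06) and Atp5f1 fell by 1.71 ± 0.22 (edgeR adjusted p = 3.7e-06). With the correction Atp5d was at 0.21 ± 0.12 (edgeR adjusted p = 0.17). Atp5f1 was called higher with the correction from all transcripts (0.62 ± 0.16) and lower with that from the principal transcript (-1.05), so no direction held over the 3 fits. Atp5s, coupling factor B, is a low-abundance message at 8.27, 6.38 and 5.58 CPM at 3 months and 2.22, 1.38 and 1.05 CPM at 24 months, and it had the largest decrease of the 47 in the uncorrected fit, -2.09 ± 0.30 (edgeR adjusted p = 1.1e-05). Its 3 older mice were the lowest of the 12, and with the correction it was at -0.57 ± 0.23 (edgeR adjusted p = 0.047).

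All 3 genes for the subunit c ring, whose coding ends are printed above, were higher at 24 months. Atp5g1 was at 41.6, 31.7 and 35.1 CPM at 3 months and 129.5, 119 and 217 CPM at 24 months, Atp5g2 at 75.2, 51.1 and 60.5 CPM and 189, 193 and 339 CPM, and Atp5g3 at 120.5, 81.7 and 91.5 CPM and 215, 227 and 239 CPM. No older mouse overlapped the young mice for any of them. They rose by 2.10 ± 0.24, 1.95 ± 0.25 and 1.21 ± 0.20 (edgeR adjusted p = 1.0e-06, 3.2e-06 and 3.7e-05), and all 3 stayed called with both corrections, at 3.88 ± 0.33, 0.68 ± 0.12 and 1.98 ± 0.18 with all transcripts. With library totals Atp5g3 was at 0.47 and just missed the threshold (edgeR adjusted p = 0.052). In uncorrected reads the balance within the family shifted for 1 of them. Per length, Atp5g3 stood at 140%, 140% and 132% of Atp5g2 at 3 months and at 99.5%, 102% and 61.5% at 24 months, while Atp5g1 stayed between 8.85% and 11.2% of Atp5g2 in all 12 libraries. These ratios divide reads by the deposited gene length, 4715 bases for Atp5g1 against 753 for Atp5g2 and 862 for Atp5g3. The balance differed in the corrected fits. With both corrections Atp5g1 and Atp5g3 rose more than Atp5g2, at 4.29, 1.01 and 0.87 with the principal transcript. For Atp5g1 these are not separate checks, since its principal transcript also has 4715 bases. Its coding part is 411 bases with 56.7% GC, and that of Atp5g2 is 441 bases with 56.7% GC. How far the assigned length and GC content set the corrected values of Atp5g1 was not tested.

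The other complex V genes are given by their part in the enzyme. In the catalytic head, Atp5b, the beta subunit that holds the catalytic sites, had the highest level per length of all members at 3, 6 and 12 months and was higher (1.04 ± 0.20), and Atp5a1, the alpha subunit, was barely past the threshold (0.49 ± 0.22, edgeR adjusted p = 0.048). Atp5c1, the gamma shaft, was lower (-0.55 ± 0.20) and Atp5e, the epsilon subunit, higher (1.61 ± 0.27). In the outer stalk, Atp5o, which caps it, was higher at 0.53 ± 0.19, but not in every fit (-0.19 with library totals, 0.22 without 3-month mouse 3), Atp5j, coupling factor 6, was lower (-0.43 ± 0.18) and Atp5h, subunit d, did not pass (-0.22 ± 0.20). Among membrane subunits, Atp5k, subunit e, was higher (1.53 ± 0.19) and Atp5l, subunit g, lower (-0.52 ± 0.20), although both sit where the enzyme forms dimers, and Atp5j2, subunit f, did not pass (-0.41 ± 0.20). Atp5sl, which is named for its likeness to Atp5s and is counted with complex V by name only, was higher (1.64 ± 0.23). With the correction Atp5b (2.11 ± 0.14), Atp5e (1.02 ± 0.24), Atp5k (0.81 ± 0.12) and Atp5sl (0.71 ± 0.18) stayed higher. Calls were lost for Atp5a1 (0.04 ± 0.12), Atp5o (0.23 ± 0.13), Atp5j (-0.21 ± 0.11) and Atp5c1, whose sign turned (0.25 ± 0.13). Atp5l was called in the opposite direction (0.65 ± 0.15; lower again with the principal transcript, -0.65), and Atp5j2 was called lower (-0.65 ± 0.15).

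The direction of a member at 24 months moved with the GC content of its transcripts. Of the 22 members under 50% GC, 4 were higher and 14 lower, with a median log2 fold change of -0.66. Of the 12 members between 50% and 55%, 9 were higher and 0 lower (median 0.66), and of the 13 at 55% or more, 11 were higher and 0 lower (median 1.65). All tested genes showed the same gradient more steeply, with 5.2% higher and 81.1% lower in the lowest class (median -2.07) and 90.2% higher and 1.2% lower in the highest (median 1.95). Across the 47 members the fold change had Pearson's r of 0.73 and Spearman's rho of 0.73 with GC content, and across 15949 genes r was 0.79; with the logarithm of the gene length, r over the members was -0.10. These are descriptions across genes that share libraries, and genes are not independent replicates. With the correction r over the members was -0.12 with GC content and 0.42 with the logarithm of the gene length. Over all genes these were 0.06 and -0.02.

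**Figure D3:**
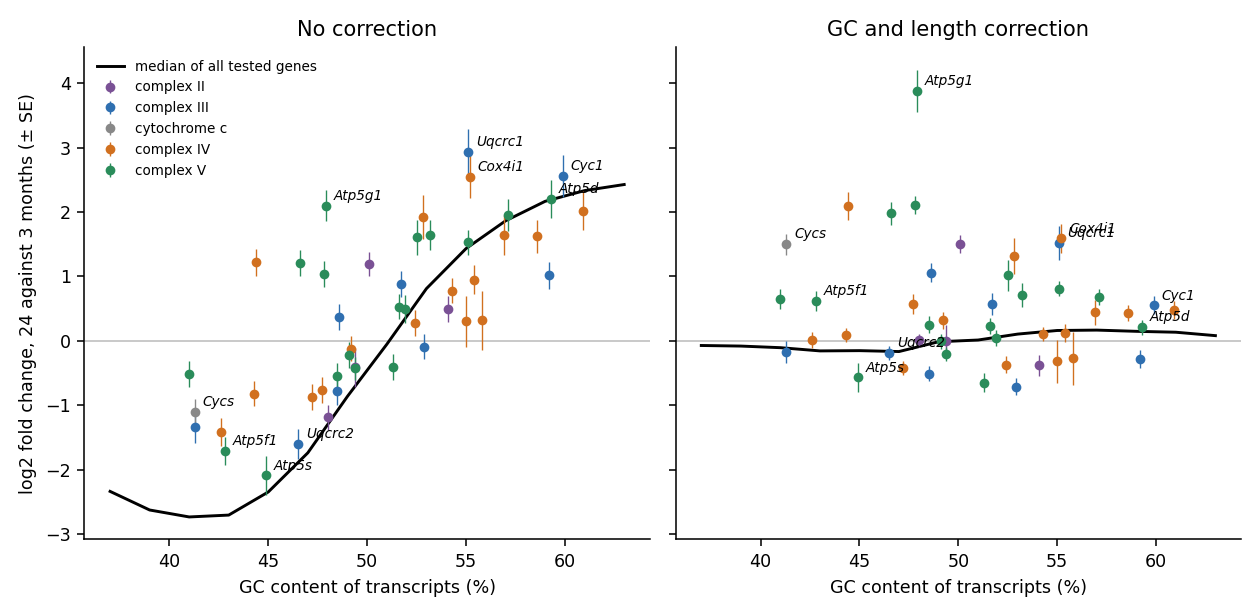
Log2 fold change (± SE) of the 47 members at 24 against 3 months on the vertical axis against GC content of their transcripts in percent, without correction on the left and with GC and length correction on the right; colours are complexes and the black line is the median of all tested genes. On the left the members follow the rising line, most of those under 50% GC lying above it; on the right the line is near 0 and members lie on both sides, with Atp5g1 at 3.88 the highest.

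After the GC and length correction, 22 members were higher, 7 lower and the median log2 fold change was 0.25, against 30.1% of all genes higher and 26.4% lower (56.5% called). Of the 24 members called higher without it, 16 were called higher with it, 7 were not called and 1 was called lower. Of the 14 called lower, 3 were called lower with it (Uqcrh, Cox7a2 and Atp5s), 4 were called higher (Cycs, Cox6c, Atp5f1 and Atp5l) and 7 were not called. All 16 of the former were also higher with the principal transcript, against 2 of the 3 latter; that fit called 22 members higher and 10 lower, beside 57.5% of all genes (30.1% higher and 27.4% lower). These 16 included Sdhc of complex II, Uqcrc1, Cyc1 and Uqcrq of complex III, Cox4i1, Cox5a, Cox6a1, Cox6a2 and Cox8a of complex IV, and Atp5b, Atp5e, Atp5g1, Atp5g2, Atp5g3, Atp5k and, by name only, Atp5sl of complex V. With GC content alone corrected, Cox6a1 (-0.13) and Cox8a (-0.30) were below 0. Under the same fit Uqcrh (0.26), Cox7a2 (0.65) and Atp5s (0.05) were above 0. The fit treats as technical any change that goes with GC content or length, and whether part of it is biological was not tested.

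At 12 months against 3 months, by contrast, almost all members leaned the same way. 45 of the 47 fold changes were above 0, with a median of 0.55, against -0.02 over all genes, and 13 members were higher and 0 lower by edgeR (28 and 0 at an unadjusted p under 0.05), where the background was 15.2% called, 6.3% higher and 8.87% lower. In 31 members (66%) all 3 mice at 12 months were above all 3 at 3 months, against 24% of all tested genes, and in 1 member (2.13%), Sdha, they were below, against 20.4%. The epithelial marker sum was also above its 3-month range in all 3 mice at 12 months (3 of 6 markers higher and 0 lower), and its part in the members' levels was not tested. Complex III had 4 of 9 called higher, complex V 6 of 17, complex IV 2 of 16, complex II 1 of 4, and Cycs was not called. At 12 months the authors' deposited table marked 25 members higher and 0 lower, beside 2343 genes higher and 2310 lower in the whole table. With library totals in place of TMM, 6 were called higher and 0 lower (background 3.04% higher and 7.11% lower), with medians of 0.43 for the members and -0.15 for all genes. DESeq2 called 20 members higher and limma voom 19, and both called 0 lower. Over all 16042 genes they called 3496 and 3066, against 2433 by edgeR.

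Uqcrq, the quinone-side small subunit of complex III, had the smallest p of the 13. It was at 48.6, 33.7 and 37.6 CPM at 3 months, 44.3, 40.8 and 40.6 CPM at 6 months and 67.3, 77.4 and 87.2 CPM at 12 months. The 12-month mice lay above both younger ages, a rise of 0.95 ± 0.20 (edgeR adjusted p = 0.0095). Uqcr11, which lies near the iron-sulfur protein, was at 64.1, 41.9 and 45.1 CPM and 78.6, 94.3 and 99.6 CPM at 3 and 12 months and rose by 0.85 ± 0.20 (edgeR adjusted p = 0.017). Sdhb rose by 0.82 ± 0.20, from its 3-month values above to 98.1, 113 and 125 CPM (edgeR adjusted p = 0.017). Both were higher in every 12-month mouse than in any 3-month mouse.

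Cox6b1 of complex IV was at 108, 73.3 and 81.7 CPM at 3 months and 136, 154 and 172 CPM at 12 months and rose by 0.81 ± 0.20 (edgeR adjusted p = 0.018). The leading 8 also held 4 membrane or stalk subunits of complex V. Atp5j2 was at 96.2, 66.4 and 72.7 CPM and 119.5, 141 and 175 CPM, a rise of 0.89 ± 0.20 (edgeR adjusted p = 0.014), and Atp5l at 83.8, 56.8 and 59.6 CPM and 100.3, 104 and 131 CPM, a rise of 0.74 ± 0.19 (edgeR adjusted p = 0.023). Atp5k was at 28.5, 19.1 and 22.2 CPM and 34.6, 40.0 and 38.8 CPM (0.70 ± 0.18, edgeR adjusted p = 0.023), and Atp5o at 71.5, 43.9 and 48.8 CPM and 88.6, 89.2 and 92.3 CPM (0.72 ± 0.19, edgeR adjusted p = 0.026). In all 5 genes the 12-month mice lay above the 3-month mice without overlap, and 3-month mouse 1 was the highest of its group. The other 5 called members were Uqcr10, Uqcrh, Atp5c1 and Atp5h, at 0.61 to 0.70, and Cox8b at 1.5 ± 0.43. With the correction Uqcrq, Uqcr11, Sdhb, Atp5j2, Atp5l, Atp5c1 and Cox8b were still called. Cox6b1 (0.16 ± 0.13, edgeR adjusted p = 0.4), Atp5k (0.33 ± 0.12, edgeR adjusted p = 0.078), Atp5o (0.36 ± 0.13, edgeR adjusted p = 0.065), Uqcr10, Uqcrh and Atp5h were not. With the principal transcript Atp5l was at 0.10 (edgeR adjusted p = 0.57).

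The number of calls at 12 months rested on single mice. Whichever 3-month or 12-month mouse was left out, the members at an unadjusted p under 0.05 were all higher. Without 3-month mouse 2 or mouse 3 edgeR called 0 members (15 and 19 had an unadjusted p under 0.05, all of them higher; DESeq2 and limma were not run on these subsets), and without 3-month mouse 1, 20 were called; leaving out a 12-month mouse gave 8, 2 and 12. The calls over all genes moved as well. They were 302, 485 and 2389 without 3-month mouse 2, 3 or 1, and 1057, 751 and 3426 without a 12-month mouse, against 2433 with all mice. Without the 24-month libraries, which add to the estimate of spread, 30 members were called higher and 0 lower. The share of all genes called in that fit is not given here, so this count cannot be set against a background. With the GC and length correction in all 12 libraries 15 were called (background 18.9%, 10.4% higher), with a median of 0.33. Without it, Spearman's rho of the fold changes over all genes was 0.47 with GC content and -0.43 with the logarithm of the gene length. Over the members these were 0.35 and -0.26. Of the 13 called without correction, 7 were called with it. Of the 47 fold changes at 12 against 3 months, 6 changed sign with the correction and 11 with that from the principal transcript. The 24-month and 12-month comparisons share their 3-month mice, so their fold changes are not independent.

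**Figure D4:**
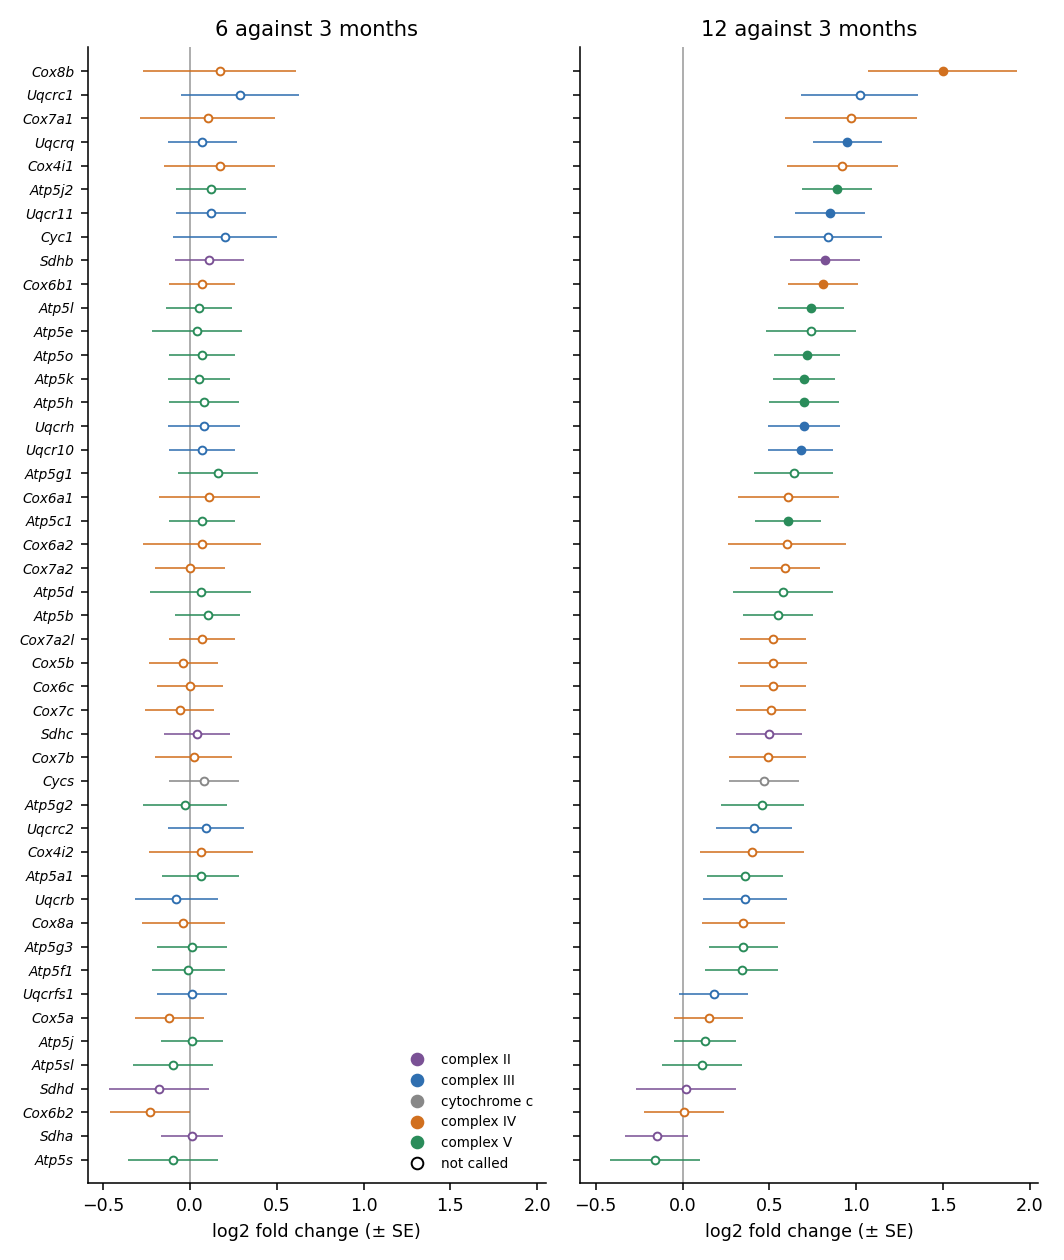
Log2 fold changes (± SE) of the 47 members at 6 against 3 months on the left and 12 against 3 months on the right, ordered by the latter; filled points are called at an adjusted p under 0.05 and colours are complexes. No point is filled at 6 months, where values run from -0.23 to 0.29, and 45 of 47 points lie above 0 at 12 months.

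At 6 months no member differed detectably from 3 months. Of the 47, 0 were called and 0 had an unadjusted p under 0.05 by edgeR, DESeq2 or limma voom, against a background of 0% called (267 genes with an unadjusted p under 0.05 by edgeR), and the median was 0.06. Fold changes ran from -0.23 for Cox6b2 to 0.29 for Uqcrc1, and the 6-month and 3-month mice overlapped in all 47, where 5.58% of all genes lay without overlap higher and 5.28% lower. The authors' deposited table also marked 0 members, beside 16 genes higher and 4 lower in the whole table. Seen from 6 months, in a comparison that shares the 12-month mice, all 3 mice at 12 months were above all 3 at 6 months in 39 members (83%, background 22%), and the median was 0.52 against -0.01 for all genes. The test called 1 of these, Uqcrq (0.88 ± 0.20, edgeR adjusted p = 0.039), where 2.03% of genes were called and 0.48% higher. With the correction it called 9 (background 6.14%, 3.05% higher), and DESeq2 called 18 (1580 of 16042 genes).

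Between 12 and 24 months the members parted: 18 were higher and 20 lower, beside 79.7% of all genes called (37.3% higher and 42.5% lower). Uqcrc2 (-2.01 ± 0.23), Atp5f1 (-2.05 ± 0.22) and Cox7b (-1.91 ± 0.23) were the furthest down with Atp5s (-1.93 ± 0.31), and Uqcrc1 (1.91 ± 0.35), Cyc1 (1.73 ± 0.31), Cox4i1 (1.63 ± 0.32) and Atp5d (1.62 ± 0.30) the furthest up. The median was -0.19, beside -0.20 for all genes. With the correction Uqcrc2 (-0.63 ± 0.11), Cox7b (-0.44 ± 0.12), Uqcrc1 (0.78 ± 0.26) and Cox4i1 (1.00 ± 0.21) were still called in the same direction. Atp5f1 (-0.00 ± 0.16), Atp5s (-0.44 ± 0.23), Cyc1 (0.22 ± 0.14) and Atp5d (0.11 ± 0.12) were not called. In all, with the correction 15 were higher and 13 lower (background 42.2%, 21.3% higher and 20.9% lower).

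Several complex IV subunits come in a general form and a form restricted to certain tissues, and 5 such pairs could be tested. Cox4i2, the subunit 4 form expressed in lung and induced by low oxygen, was at 58.5, 32.9 and 27.9 CPM at 3 months and 92.0, 93.4 and 189 CPM at 24 months, where all 3 mice lay above the young ones, a rise of 1.65 ± 0.31 (edgeR adjusted p = 1.3e-04). Relative to Cox4i1 it did not rise: per length it stood at 36.8%, 33.0% and 24.4% of Cox4i1 at 3 months and 19.8%, 19.2% and 15.3% at 24 months, below the young range in each mouse. With the correction Cox4i2 missed the threshold (0.44 ± 0.19, edgeR adjusted p = 0.063). In lung Cox4i2 is known from pericytes and smooth muscle, and of 8 pericyte markers 5 were higher and 3 lower at 24 months, their sum being 248 to 328 CPM at 3 months and 759, 890 and 2428 CPM at 24 months, with none at 0. Their part in the change of Cox4i2 was not tested.

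Cox6a2, Cox7a1 and Cox8b are the forms of heart and skeletal muscle. Cox6a2 was at 16.5, 10.5 and 10.8 CPM at 3 months, 18.9, 21.7 and 16.8 CPM at 12 months and 37.6, 27.1 and 78.9 CPM at 24 months, a rise of 1.92 ± 0.34 at the last age (edgeR adjusted p = 8.8e-05) that was also called with the correction (1.32 ± 0.28). The older mice were all above the young ones, and per length it stayed at 8.03% to 13.2% of Cox6a1 in all 12 libraries. Cox8b, also a brown fat gene, was at 3.14, 1.85 and 0.999 CPM, 4.20, 5.86 and 7.18 CPM and 2.96, 1.16 and 3.63 CPM at these ages: highest at 12 months, where no mouse overlapped the young ones (1.5 ± 0.43, edgeR adjusted p = 0.033), and overlapping the young ones at 24 months (0.32 ± 0.46, edgeR adjusted p = 0.52). Cox7a1 had a similar course at 4.51, 2.95 and 2.68 CPM, 5.11, 5.58 and 9.28 CPM and 4.03, 1.89 and 6.91 CPM but passed at neither age (12 months 0.97 ± 0.38, edgeR adjusted p = 0.091; 24 months 0.30 ± 0.40, edgeR adjusted p = 0.49).

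Markers of muscle and fat were summed beside these isoforms. The summed level of 9 heart muscle markers (Myh6, Tnnt2, Tnni3, Actc1, Myl7, Myl4, Nppa, Sln and Ryr2), which also mark the cardiac muscle around pulmonary veins, ran from 322 to 593 CPM in 3-month mice, 313 to 766 CPM in 6-month mice, 646 to 742 CPM in 12-month mice and 695 to 1135 CPM in 24-month mice, with none at 0. Of the 9, 5 were higher and 0 lower at 12 months, and 6 higher and 1 lower at 24 months. The 4 brown fat markers summed to 2.85 to 5.98 CPM at 3 months, to 5.71 to 16.6 CPM at 12 months, where Ucp1 and Cidea were higher, and to 4.435 to 16.75 CPM at 24 months, with 1 higher and 1 lower; Elovl3 was near 0 throughout. The 9 skeletal muscle markers summed to 10.2 to 14.1 CPM at 3 months, to 17.4 to 25.1 CPM at 12 months with 0 called, and to 26.5, 44.0 and 440 CPM at 24 months, 24-month mouse 3 being the highest, and Myh2 and Tnnc2 were at 0 at 24 months. Their part in the levels of Cox6a2, Cox7a1 and Cox8b was not tested.

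**Figure D5:**
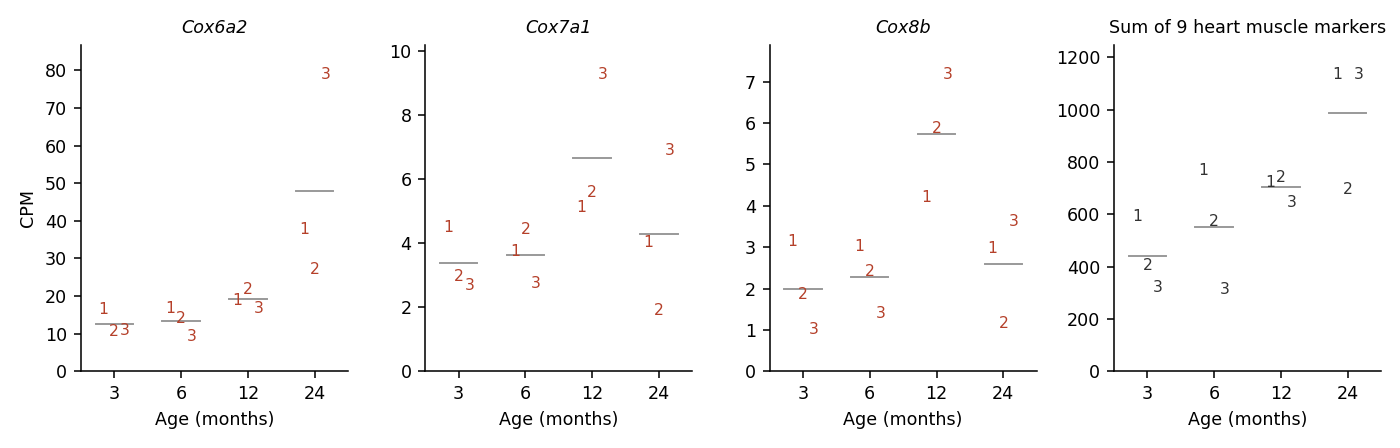
CPM of Cox6a2, Cox7a1 and Cox8b and the summed CPM of the 9 heart muscle markers (vertical axes, linear from 0) against age in months; each digit is 1 mouse, numbered as in its age group, and grey bars are means of 3 mice. Cox6a2 is highest at 24 months in mouse 3 at 78.9 CPM, Cox7a1 and Cox8b are highest at 12 months in mouse 3, and the marker sum reaches 1135 CPM at 24 months.

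The testis forms were low or not seen. Cox6b2 was at 13.6, 9.89 and 11.2 CPM at 3 months and 18.5, 18.2 and 30.3 CPM at 24 months, higher in each older mouse (0.95 ± 0.23, edgeR adjusted p = 0.0012), but with the correction it was at 0.12 ± 0.14 (edgeR adjusted p = 0.49) and with library totals at 0.15 (edgeR adjusted p = 0.5). Per length its share of Cox6b1 lay between 10.8% and 11.8% in the young mice, between 6.37% and 6.66% in 12-month mice and between 15.1% and 22.3% in 24-month mice. Cox7b2 and Cox8c held 0 to 2 reads and 0 to 1 read per library. None of 6 testis markers could be tested, their sum never exceeding 0.216 CPM, and 5 of them were at 0 at 24 months.

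Of the mitochondrially encoded genes for complexes III to V, 5 of 6 were tested, and at 24 months 0 were higher and 5 lower with a median of -1.18 (0 higher and 4 to 5 lower under the other scalings). The 3 with the smallest p were mt-Cytb of complex III (-1.18), mt-Co1 (-1.18) and mt-Co2 (-1.33), catalytic subunits of complex IV. With the correction the direction turned, 4 higher and 0 lower (median 0.60); the median GC of these messages is 38.9%. At 12 months 1 was higher and 0 lower, median 0.48 (4 and 0 with the correction), the 12-month mice including the library with the highest mitochondrial share, 3.12% in mouse 3. At 3 months mt-Co1 and mt-Cytb averaged 6206 and 2750 CPM, but mt-Co2, mt-Co3 and mt-Atp6 averaged 15.7, 13.2 and 11.8 CPM. The reason for this gap was not tested, and the genes on its low side rest on far fewer reads.

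Another 4 subunits or regulators of these complexes have names outside the rule. Ndufa4, now placed in complex IV, and the complex V membrane subunits Usmg5 and 2010107E04Rik were lower, and Atpif1, the ATPase inhibitor, was at -0.26 (0 higher and 3 lower of 4). All 4 were lower with the correction from all transcripts, and 3 with that from the principal transcript. At 12 months 2 of the 4 were higher and all 4 fold changes were above 0, but with the correction 0 were higher and 1 was lower, 2010107E04Rik, which went from 0.63 to -0.50. Of 33 tested assembly factors for these complexes, 13 were higher and 14 lower at 24 months (median -0.36), 11 and 8 with the correction and 4 and 18 with library totals, and 3 were higher and 1 lower at 12 months (median 0.16; 2 and 0 with the correction). The assembly factors with the smallest p at 24 months, Ttc19 of complex III (-2.59), Lrpprc (-3.09) and Fastkd1 (-3.20), which bind mitochondrial RNA, were all lower, and with the correction were at -0.76, -1.09 and -0.94.

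Of 13 regulators of respiratory genes, 0 were higher and 1 was lower at 12 months (median -0.26), where 6.3% of all genes were higher and 8.87% lower, and 4 were higher and 8 lower at 24 months (median -1.42; 2 and 3 with the correction, 3 and 8 with library totals). Gabpa, the DNA-binding subunit of the ETS-family factor of respiratory promoters, Tfb2m, a mitochondrial transcription factor, and Gabpb1, the partner of Gabpa, had the smallest p at 24 months, at -3.33, -3.24 and -1.96. With the correction they were at -0.40, -1.08 and 0.62. The 35 nuclear subunits of complex I, the entry of electrons from NADH, were at 15 higher and 0 lower at 12 months (median 0.64; 12 and 1 with the correction) and 16 higher and 10 lower at 24 months (median 0.35). At 24 months the median turned to -0.09 with the correction (15 higher, 13 lower) and to -0.38 with library totals. The 78 tested cytosolic ribosomal protein genes were at 54 higher and 0 lower at 12 months (median 0.72; 44 and 0 with the correction) and 29 higher and 23 lower at 24 months (median 0.16). That median turned to -0.18 with the correction (26 higher, 32 lower) and to -0.57 with library totals, where over all genes 38.2% were higher and 44.6% lower without either. Ribosomal protein genes, which lie outside the respiratory chain, thus also leaned upwards at 12 months, and differences between the members, the regulators and these lists were not tested.

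Respiratory genes are known for promoter sites of NRF1, of ETS-family factors and of YY1, and the deposited names could be matched to RefSeq promoters (GRCm38.p6, 250 bases before to 50 after the start) for 35 of the 49 members. The NRF1 core CGCATGCG, which reads the same on both strands, was present in 8 of 35 (22.9%), against 2.07% of the 27025 genes with a promoter. The ETS core CCGGAAG, searched on both strands, was in 12 of 35 (34.3%) against 9.93%, and the YY1 core AAGATGGC in 2 of 35 (5.7%) against 3.19%. Of the 8 NRF1 cores, 2 are shown in the 60 bases around them, with the core in capitals, for Cycs (chr6:50566597-50566656, minus strand) and Cox6a1 (chr5:115349086-115349145, minus strand), whose fold changes at 24 months had opposite signs without the correction and were both above 0 with it.
Cycs promoter: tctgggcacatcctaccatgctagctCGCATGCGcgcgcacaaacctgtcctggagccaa
Cox6a1 promoter: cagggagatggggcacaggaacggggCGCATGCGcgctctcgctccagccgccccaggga
The core began 61 bases before the Cycs start and 161 bases before that of Cox6a1. Of the 8 members with the NRF1 core (Atp5g2, Atp5j, Atp5k, Atp5l, Cox6a1, Cycs, Uqcr11 and Uqcrc1), 5 were higher and 3 lower at 24 months, and of the 12 with the ETS core 6 were higher and 3 lower. A match to these letters is a description of the sequence and not a binding site, and nothing was measured at these promoters.

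Counts of 4 members may include reads of an overlapping gene, since the sources used here do not state whether the counting used strand: Atp5d with Dos, Atp5j with Gabpa, Cox6c with Vps13b, and Atp5o with neighbours in its long annotated span each overlap a gene holding at least 20% as many reads. With 3 mice per age, each edgeR p-value sets a difference against a spread between mice that was estimated over all ages, with information from other genes.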

How the data were processed

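Gene-level read counts and FPKM of lung poly(A) RNA from 12 mice were deposited in 1 table; the counts are raw per gene, and every FPKM value above 0 was recomputed from the count, the library total and the deposited gene length within a relative tolerance of 1e-06. Per the file headers, the authors' table also holds a normalised mean signal per age, a log2 fold change against 3 months and a p-value with its adjusted value. TopHat, STAR 2.5, HTSeq 0.6.1 and mm10 are named in the submitters' processing notes, without their roles; whether counting used strand is not stated there. Library totals were 14720869 to 21244361 reads, and counting precision is limited for genes of a few reads.

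Counts of all 12 libraries were fitted in R 4.3.3 with edgeR 4.0.16 (TMM factors, filterByExpr, robust quasi-likelihood, age as group), with Benjamini-Hochberg adjustment over 16042 genes and a threshold of 0.05. Alternatives were relative log expression factors, DESeq2 1.42.0, limma voom 3.58.1, a minimum mean CPM of 1 or none as filter, a replicate block, the 6 mice of a comparison alone, no 24-month libraries, each mouse left out, and offsets from a smooth of log2 CPM on transcript GC content and gene length per library (mgcv 1.9.3; GENCODE M21 transcripts, 15949 genes). Library totals, the principal-transcript correction and a GC and length correction without the 24-month libraries were added after seeing the data. Fits were tested on simulated data.

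The members and gene lists were chosen with earlier results of these data known. Values per mouse are given by a fixed rule: per complex (cytochrome c with III) the 2 highest and 2 lowest fold changes at 24 months, isoform pairs with both genes tested, and up to 8 members called at 6 or 12 months; at most 3 genes of another list are named, by smallest p. All 49 members overlap the same gene ID in GENCODE M21. Sequences come from GENCODE M21 coding sequences and RefSeq promoters of GRCm38.p6.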

Additional observations from a re-analysis of the deposited data

How the results depend on the processing

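At 24 against 3 months the counts of 24 higher and 14 lower members moved by more than 1.5 times under 2 kinds of alternative: with library totals 13 were higher (20 lower), and 7 were lower with the GC and length correction, 6 with GC content alone and 6 with the replicate block and the correction. Leaving out 1 mouse gave 20 to 25 higher and 12 to 15 lower, and 21 to 24 and 4 to 7 with the correction. At 12 against 3 months, in place of 13, the members called higher were 6 with library totals, 20 with DESeq2, 27 with GC content alone, 21 with only the 6 mice, 30 without the 24-month libraries and 26 (with 1 lower) when these were also corrected, and 0 to 20 without 1 mouse (1 to 18 with the correction). At 12 against 6 months, in place of 1, they were 0 with relative log expression factors, library totals or the replicate block, 18 with DESeq2, 4 with limma voom, 9 with the correction, 20 with GC content alone, 7 with the principal transcript, 5 with the block and correction, 22 with the 6 mice alone, 25 without the 24-month libraries, 16 when these were also corrected, and 0 to 1 without 1 mouse (0 to 5 with the correction). At 24 against 12 months 9 were higher with library totals and 10 with GC content alone, and 13, 10 and 12 were lower with the correction, GC content alone and the block with the correction, beside 16 to 18 higher and 18 to 22 lower without 1 mouse, or 13 to 16 and 11 to 14 with the correction. The cause of these shifts was not tested. For many of these fits the share of all genes called is not given here. They include GC content alone, the block, the 6 mice alone and no 24-month libraries. Member counts from such fits cannot be set against a background.

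Log2 fold changes are followed here for every member called against 3 months or at 12 against 6 months and for the 8 outermost at 24 against 12 months. With the GC and length correction 14 of the 47 fold changes at 24 against 3 months changed sign, 10 of them called without it. These 10 were, with the GC and length correction, GC content alone and the block with the correction, 0.62, 0.84 and 0.61 for Atp5f1, 0.65, 2.12 and 0.66 for Atp5l, 0.01, 1.11 and 0.01 for Cox7b, 0.01, 0.05 and 0.01 for Sdha, -0.38, -0.51 and -0.38 for Sdhb, 0.25, 0.49 and 0.25 for Atp5c1, 0.57, 0.57 and 0.58 for Cox6c, 0.09, 1.52 and 0.09 for Cox7c, 1.5, 1.49 and 1.5 for Cycs and -0.28, -0.88 and -0.27 for Uqcr11. Leaving out 1 mouse, without and then with the correction, gave -1.96 to -1.66 and 0.41 to 0.77 for Atp5f1, -0.83 to -0.51 and 0.57 to 0.76 for Atp5l, -1.63 to -1.26 and -0.09 to 0.07 for Cox7b, -1.44 to -1.06 and -0.03 to 0.05 for Sdha, 0.21 to 0.54 and -0.49 to -0.28 for Sdhb, 0.25 to 0.63 and -0.03 to 0.13 for Atp5a1, -0.79 to -0.45 and 0.19 to 0.29 for Atp5c1, -1.03 to -0.69 and 0.44 to 0.74 for Cox6c, -1.07 to -0.71 and 0.03 to 0.13 for Cox7c, -1.36 to -1.03 and 1.31 to 1.59 for Cycs and 0.71 to 1.12 and -0.34 to -0.16 for Uqcr11. At 24 against 12 months these ranges were 1.07 to 1.83 and -0.00 to 0.19 for Atp5d and -2.39 to -1.79 and -0.21 to 0.14 for Atp5f1, and with GC content alone Atp5d was at -0.04, Atp5f1 at 0.13 and Cox7b at 0.21. With GC content alone at 24 against 3 months Atp5j was at 0.25, Cox5b at -0.31, Uqcrh at 0.26, Atp5s at 0.05, Cox4i2 at -0.09, Cox6a1 at -0.13, Cox6b2 at -0.45, Cox7a2 at 0.65, Cox8a at -0.30, Uqcrb at 1.21 and Uqcrc2 at 0.15. With the principal transcript Atp5o was at -0.01, Cox7b at 0.03, Sdhb at -0.42, Atp5c1 at 0.25, Cycs at 1.47 and Uqcrc2 at 0.28 (Uqcrh at -0.03 at 12 against 3 months), and with library totals Atp5a1 was at -0.2, Atp5o at -0.19 and Sdhb at -0.24. Of 494 gene values without a correction and with all mice, 451 kept direction and call, 40 lost the call and 3 changed sign.

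The replicate numbers did not pair the mice: over 18 same-numbered pairs the median correlation of deviations was -0.054, and 4 were over 0.1. The replicate block gave 23 higher and 13 lower members at 24 months, 10 higher at 12 months and 0 at 12 against 6 months. The share of all genes called with the block is not given here. With 3 mice per age, base composition that moves with the oldest age and counting whose strand use is not given limit what can be read from a single member, and genes of a few CPM, such as Cox7a1, Cox8b and Atp5s, rest on few reads.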
